A study of Mus musculus with 2 samples.

Results

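Acyl-CoA synthetases were examined in perigonadal white adipose tissue (WAT) of female PeriA Tg mice and of their WT littermates. The 10 enzymes taken were *Acsl1*, *Acsl3*, *Acsl4*, *Acsl5*, *Acsl6*, *Acsm3*, *Acsm5*, *Acss1*, *Acss2* and *Acss3*, and a gene was read from probe sets annotated to its symbol alone. By this rule 8 of the 10 had a value, on 17 of 45037 probe sets, out of 18193 genes so named in all. No probe set was annotated to *Acsl1* or *Acss3* alone, and both were not analysed here. PeriA Tg mice were heterozygous for human perilipin A, the main coat protein of the adipocyte lipid droplet, driven by the aP2 promoter/enhancer, used for its activity in adipocytes, and WT mice lacked this transgene. Both groups had the C57BL/6 background, received a high-fat diet (HFD), were 30 weeks old and were fasted overnight before harvest. RNA from 3 mice of a genotype was pooled and hybridised to 1 Mouse Genome 430 2.0 array, giving 2 arrays in all. With 1 pool for each genotype there was no spread over mice, and no difference below was tested.

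Acyl-CoA synthetases join a fatty acid to coenzyme A at the cost of ATP. This activation traps the fatty acid in the cell and is the step that precedes its oxidation, its storage as triglyceride and its use in membrane lipids. The families are named for the length of the chain that they accept: ACSL enzymes take long chains, ACSM enzymes take medium chains in the mitochondrial matrix, and ACSS enzymes take acetate and other short chains. In adipocytes, which both store fatty acids and burn them, the place of the enzyme in the cell helps to set the route that the acyl-CoA takes.

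Each probe set carries the authors' signal, a brightness on a linear scale after scaling of the whole array, and the signal log ratio is the log2 of the Tg signal divided by the WT signal. A ratio over 0.3 or under -0.3 was called, since the methods used these bounds. Median signals were 95.4 in Tg and 101.1 in WT, and probe sets were kept, here called passing the filter, if at least the brighter of their signals reached 98.2, the median over both arrays together. The value of a gene was that of its brightest probe set. Of the 11587 genes that passed, 16.6% were over 0.3 and 16.9% were under -0.3, whereas 1.02% were over 1 and 1.87% were under -1. Probe sets of 1 gene had a pooled SD of 0.41 in their signal log ratios, which is more than the bound of 0.3 and covers only repeated readings of the same pools. Probes differ in how brightly they bind, so that signals were compared between genotypes and not between genes. Markers of the labelled tissue were present, since all 14 markers of mature adipocytes with a probe set passed the filter, among them *Adipoq*, the adipokine adiponectin, with 43803 in Tg and 41052 in WT.

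Among the acyl-CoA synthetases, only *Acsm3* was past the bound among those with clear signals, and it was higher in Tg WAT. Of the 8 measured enzymes, 7 passed the filter. Past the bound were 1 over 0.3 and 0 under -0.3, where 16.6% and 16.9% of all genes lay, a count that does not set the enzymes apart, and the other 6 lay between -0.13 and 0.17, or from 0.912-fold to 1.13-fold. The median of the 7 was 0.07, against 0.02 over all genes that passed. What stood out was the size of the value of *Acsm3*.

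**Figure D1:**
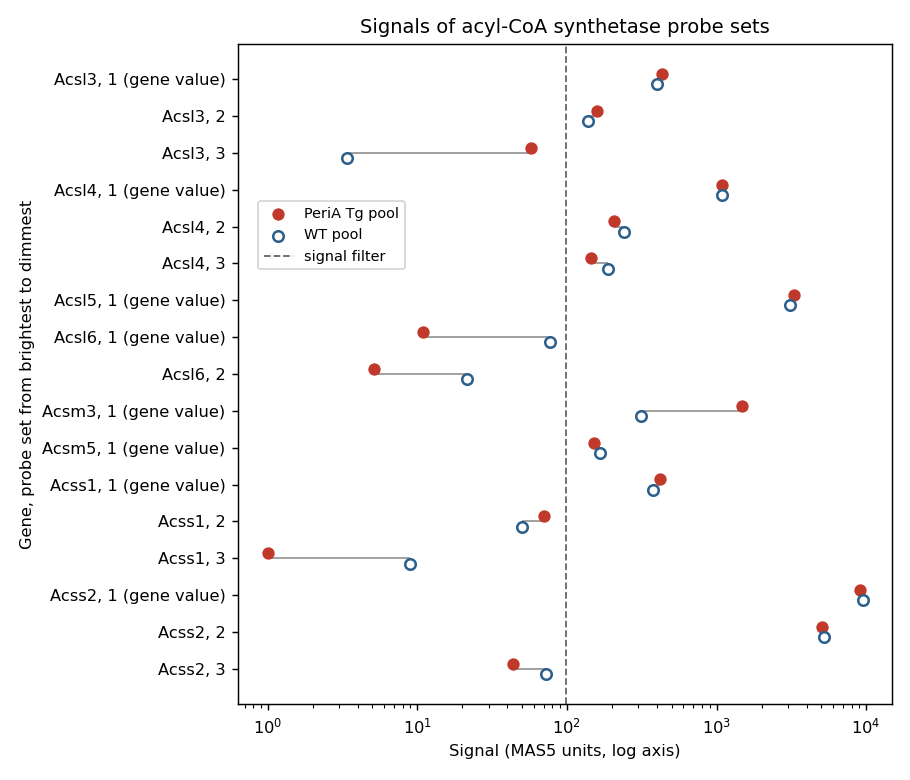
Signals of the 17 probe sets of the 8 measured acyl-CoA synthetases on a log axis, with filled circles for the PeriA Tg pool and open circles for the WT pool, 1 array each. The circles of *Acsm3* lie far apart at 1488 in Tg and 314.1 in WT, those of the other probe sets right of the filter at 98.2 lie close together, and the other wide gaps are left of it.

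*Acsm3* encodes a mitochondrial medium-chain acyl-CoA synthetase, which was first described as the SA gene in hypertensive rats. The sole probe set read 1488 in Tg and 314.1 in WT, a signal log ratio of 2.24 or 4.74-fold. Both signals were above the filter, so that the ratio did not rest on a reading at the lower end of the array. Among the 11587 genes, 15 had a higher ratio. Among the 4624 genes whose mean log2 signal was within 1 unit of that of *Acsm3*, 3 had a higher ratio, and 0.303% were over 1. The probe set is of the kind that reads several transcripts of the same gene, and no other probe set of *Acsm3* stood beside it as a second reading.

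*Acsm5*, a medium-chain enzyme of the same family, had 151.2 in Tg and 165.7 in WT, a signal log ratio of -0.13. The enzymes share a cluster on chromosome 7, and they differed in their ratios. The 250 bases before the transcript start used in RefSeq's promoter table are shown because these 2 genes of a family and a cluster had unlike ratios. RefSeq also places an earlier start for both genes, at 119760883 for *Acsm3* and 119526131 for *Acsm5*. The part of each stretch from there on lies within the gene's span. They are RefSeq sequence of GRCm38.p6, forward strand, with matches to the motifs searched in capitals.
Acsm3, chr7:119760673-119760922: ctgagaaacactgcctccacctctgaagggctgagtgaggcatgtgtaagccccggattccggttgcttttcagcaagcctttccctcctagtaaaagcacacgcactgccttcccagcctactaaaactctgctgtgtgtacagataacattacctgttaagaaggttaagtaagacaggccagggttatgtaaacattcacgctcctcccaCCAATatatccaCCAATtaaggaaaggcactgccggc
Acsm5, chr7:119526015-119526264: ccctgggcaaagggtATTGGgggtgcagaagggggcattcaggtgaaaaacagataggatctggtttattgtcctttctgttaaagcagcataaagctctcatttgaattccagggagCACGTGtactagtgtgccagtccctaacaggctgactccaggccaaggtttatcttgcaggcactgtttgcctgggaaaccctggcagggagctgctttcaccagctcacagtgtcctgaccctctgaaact
The capitals mark CCAAT boxes (CCAAT, or ATTGG where it lies on the other strand) and, in *Acsm5*, an E-box (CACGTG). *Acsm3* had 2 CCAAT boxes, whose first bases lie 37 and 25 bases before that transcript start, and *Acsm5* had 1. Both boxes of *Acsm3* and the E-box of *Acsm5* lie after the earlier start, within the gene's span. These motifs are common, with a CCAAT box in 37.4% and an E-box in 7.15% of the 32851 promoter windows of 300 bases. A PPAR response element, taken as 2 copies of AGGTCA with 1 base between them and at most 2 mismatches on either strand, was found in 3.86% of all windows and in 0 of the 12 windows of the 9 enzymes that had one. A sterol regulatory element (TCACNCCAC or TCACNCGAC) was found in 1.54% of all windows and, among the enzymes, in 1 of the 2 windows of *Acsl1*. CCAAT boxes stood in 8 of these 12 windows. The letters found describe these windows and were not set against any binding data.

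Most genes next to *Acsm3* did not share its value. In the RefSeq order of protein-coding genes, the 7 before and the 4 after it were taken, of which 9 had a probe set and 6 passed the filter. Of these 6, *Rexo5*, an RNA exonuclease gene, was over 0.3, and the other 5 lay between -0.14 and 0.22. *Rexo5* had 279.9 in Tg and 171.5 in WT on its brightest probe set (0.71), and 131.3 in Tg and 127.6 in WT on the next (0.04). *Eri2*, an exonuclease gene whose span overlaps the end of *Acsm3*, had 162.2 in Tg and 141.2 in WT. Of the other medium-chain enzymes of the cluster, *Acsm1* and *Acsm2* had a probe set of their own, and both were dim. *Acsm1* had 23.0 in Tg and 24.9 in WT. *Acsm2* had 4 probe sets, all under the filter, with 45.4 in Tg and 5.70 in WT on the brightest and 5.70 in Tg and 39.5 in WT on the next. The other 2 had 2.70 and 1.10 in Tg and 8.70 and 9.70 in WT, so that 3 of the 4 dim readings were lower in Tg and the brightest was higher.

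**Figure D2:**
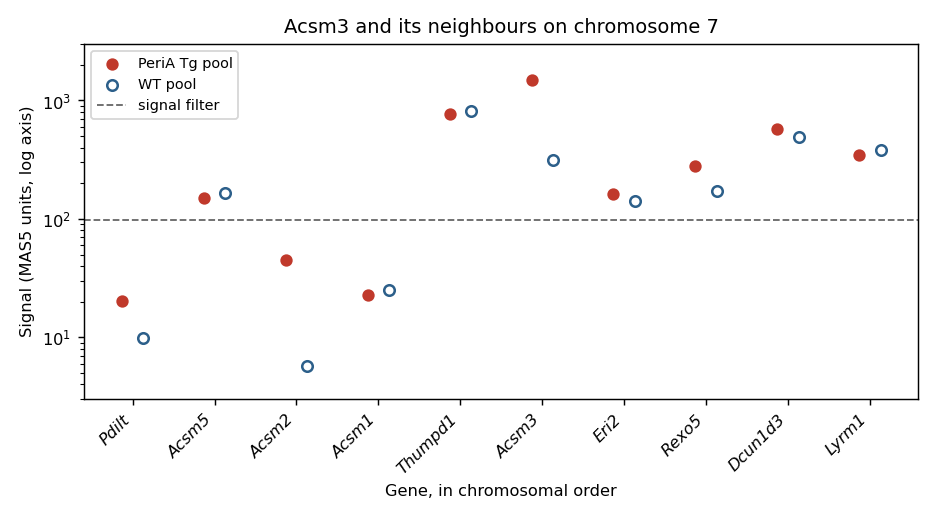
Signals on a log axis of *Acsm3* and of the 9 neighbouring genes on chromosome 7 that had a probe set, in chromosomal order and evenly spaced, with filled circles for the PeriA Tg pool and open circles for the WT pool. *Acsm3* has the widest gap above the filter, with 1488 in Tg and 314.1 in WT, and the gap of *Acsm2* lies under the filter.

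Markers of brown adipocytes had a higher summed signal on the same array as *Acsm3*, with 31180 in Tg and 6803 in WT over all 16. Of the 16, 11 were above the filter on both arrays and these 11 were over 0.3, against 16.6% of all genes. *Elovl3*, *Dio2* and *Slc27a2* passed through their Tg signal alone and 2 did not pass. *Zic1*, a marker of interscapular brown fat, had 11 in Tg and 12.9 in WT, and *Lhx8*, another, had 13.8 in Tg and 1.60 in WT. Since ACSM enzymes are abundant in liver and kidney, markers of these organs were read too: the summed signal of all 8 with a probe set was 1633 in Tg and 1151 in WT, most of it from *Alb*. The 2 that passed the filter lay on opposite sides. *Alb*, the serum albumin of hepatocytes, had 1262 in Tg and 888.9 in WT (0.51). *Kap*, a kidney gene, had 111.6 in Tg and 151.7 in WT (-0.44), and 20.6 in Tg and 3 in WT on its other, dim probe set. On brightest probe sets under the filter, *Apoa1*, *Umod*, *Slc34a1*, *Slc22a6* and *Aqp2* were higher in Tg, and *Ttr* was lower. The part of brown adipocytes in the value of *Acsm3* was not tested. In RNA of a whole tissue, more cells of a type and more RNA per cell cannot be told apart.

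**Figure D3:**
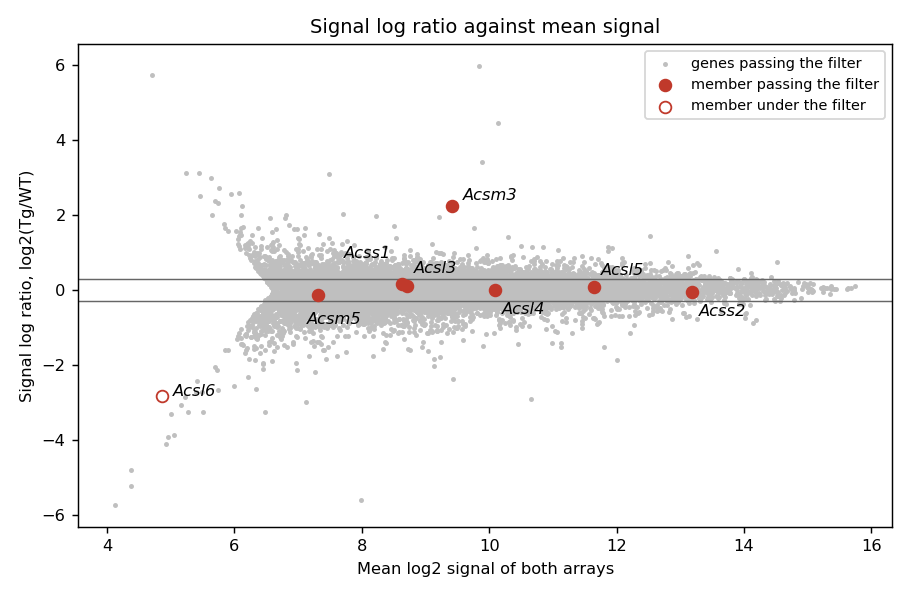
Signal log ratio of Tg over WT on the vertical axis and log2 signal averaged over both arrays on the horizontal axis, with 1 grey point for each of the 11587 genes that passed the filter, red points for the acyl-CoA synthetases and lines at 0.3 and -0.3. *Acsm3* lies above the cloud at 2.24, 6 enzymes lie between the lines, and *Acsl6*, drawn open, was under the filter.

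The long-chain enzymes measured here differed little between the genotypes where their signals were clear. *Acsl5*, which acts at mitochondria and the endoplasmic reticulum, had 3273 in Tg and 3115 in WT on its only probe set, a signal log ratio of 0.07. *Acsl3*, an enzyme of the endoplasmic reticulum and of nascent lipid droplets, had 434.8 in Tg and 400.6 in WT (0.12). Its second probe set had 158.2 in Tg and 137.5 in WT (0.20). The dimmest probe set of *Acsl3* had 57.4 in Tg and 3.40 in WT, both under the filter, and the brighter readings did not show such a gap.

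*Acsl4*, which prefers arachidonic acid and other polyunsaturated fatty acids, had 1083 in Tg and 1091 in WT on its brightest probe set, a signal log ratio of -0.01. The second had 206.6 in Tg and 241.4 in WT (-0.22), and the third had 144.7 in Tg and 188.5 in WT (-0.38). The readings thus ran on the lower side in Tg and were further apart the dimmer the probe set. Of the 11 acyl-CoA synthetase probe sets that passed the filter, the third of *Acsl4* was the 1 under -0.3 and that of *Acsm3* the 1 over 0.3, where 21.5% and 17.8% of all passing probe sets lay. After centring of both arrays on their median log2 signal it had -0.298, inside the bound. The arrays also differed along transcripts, as read on bacterial poly-A controls, which are labelled with the sample. Their 5′ probe set had a lower log ratio than the 3′ one in all 8 pairs. These pairs are repeated readings of the dap, lys, phe and thr controls and not separate transcripts. The median difference was -0.55, against -0.005 for hybridisation controls. Macrophage markers had 0 of 16 over 0.3 and 9 under -0.3, against 16.6% and 16.9% of all genes. Their summed signal was 50472 in Tg and 67090 in WT. The part of either in the values of *Acsl4* was not tested.

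*Acsl6*, the long-chain enzyme of the brain that serves docosahexaenoic acid, was dim on both arrays. Its brightest probe set had 10.9 in Tg and 76.9 in WT, and the other had 5.10 in Tg and 21.5 in WT. All 4 signals were under the filter, so that *Acsl6* has no call. With signals under 56.9, the 40th percentile, raised to that floor, WT was 1.35-fold higher than Tg, against 7.06-fold from the signals as deposited. The summed signal of all 10 markers of neurons and glia with a probe set was 1206 in Tg and 920.7 in WT. The 3 whose brightest probe set passed the filter had higher signals in Tg. *Stmn2*, a neuronal microtubule regulator, had 443.9 in Tg and 255.9 in WT (0.79), and *S100b*, a glial calcium-binding protein that adipocytes also make, had 381.9 in Tg and 273.7 in WT (0.48). *Rbfox3*, a splicing factor of neurons, had 128.7 in Tg and 105.4 in WT (0.29). On brightest probe sets under the filter, *Snap25*, *Syt1*, *Elavl4*, *Tubb3* and *Aqp4* were lower in Tg, and *Gfap* and *Sox10* were higher. Another probe set of *Sox10* passed through its WT signal alone, with 54.3 in Tg and 107.3 in WT (-0.98).

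The enzymes of acetate were near equal in both pools. *Acss2*, the acetyl-CoA synthetase of cytosol and nucleus and a target of sterol regulatory element-binding proteins (SREBP), had 9111 in Tg and 9482 in WT on its brightest probe set, a signal log ratio of -0.06. Its second bright probe set had 5101 in Tg and 5207 in WT (-0.03), so that both clear readings of this gene were alike. The third, under the filter, had 43.3 in Tg and 72.8 in WT. A further dim probe set is annotated to *Gssos2* and *Acss2* together and names neither. *Acss1*, the mitochondrial acetyl-CoA synthetase, had 420.5 in Tg and 373.4 in WT (0.17), the highest ratio among the 6 enzymes within the bound. Its other probe sets were under the filter and opposed each other, with 70.3 in Tg and 50.3 in WT on the brighter, and 1 in Tg and 8.90 in WT on the dimmer. *Sirt1* and *Sirt3*, deacetylases that activate ACSS2 and ACSS1, had signal log ratios of 0.09 and 0.10.

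The fatty acid-activating enzymes outside these 10 included another gene with a high ratio, *Slc27a2*. Of 16 listed, 14 had a probe set and 6 passed the filter, of which 2 were over 0.3 and 1 was under -0.3. Their median of 0.20 includes *Slc27a2*, which passed through its Tg signal alone. Of the 5 above the filter on both arrays, 1 was over 0.3. Of all genes, 16.6% were over 0.3 and 16.9% under -0.3, the shares to set beside this and the list counts below. *Slc27a2*, which activates very long-chain fatty acids, had 190.4 in Tg and 3.60 in WT, and with the floor of 56.9 Tg was 3.35-fold higher. Unlike *Acsm3*, its WT signal was at the lower end of the array. *Aasdh*, a distant relative of the acyl-CoA synthetases, had 879.8 in Tg and 526.3 in WT (0.74), and its second probe set had 0.82. *Aacs*, which activates acetoacetate for lipid synthesis in the cytosol, had 955.7 in Tg and 1236 in WT (-0.37), and its second had -0.47. *Acsf3*, the malonyl-CoA synthetase of mitochondria, had 295.7 in Tg and 255.4 in WT (0.21).

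Acyl-CoA thioesterases, which undo the activation, had a higher median than the synthetases. Of 14, 9 passed the filter, and their median was 0.32, against 0.07 for the synthetases and 0.02 for all genes. There were 5 over 0.3 and 0 under -0.3, against 16.6% and 16.9% of all genes. *Acot4*, with 129.3 in Tg and 93.6 in WT, passed through its Tg signal alone. The median of 0.32 includes *Acot4* and was not computed without it. Of the 8 above the filter on both arrays, 4 were over 0.3. *Acot2*, a mitochondrial enzyme, had 863.9 in Tg and 445.5 in WT (0.96), and *Acot11*, a thioesterase of brown fat, had 265.5 in Tg and 137.6 in WT (0.95). *Acot4* and *Acot6* had 0.47 and 0.38. The second probe set of each of these 4 genes was under the filter. Those of *Acot2*, *Acot4* and *Acot6* were under -0.3, and that of *Acot11* had 0.29.

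Binding of acyl-CoA and its transfer to carnitine followed, with 12 of 13 genes passing, 4 over 0.3, 1 under -0.3 and a median of 0.14. *Crat*, carnitine acetyltransferase, had 2038 in Tg and 1496 in WT (0.45). *Slc22a5*, the carnitine importer, had 0.43 on its brightest probe set and -0.33 on the other. *Cpt2*, the carnitine palmitoyltransferase of the inner membrane, had 4539 in Tg and 3435 in WT (0.40). *Cpt1a*, its outer membrane partner, had -0.37 on its brightest probe set and 0.20 and 0.08 on the others. *Cpt1b*, also listed, had no probe set annotated to it alone and was not read here. *Dbi*, the main acyl-CoA-binding protein, had 0.03.

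Acyltransferases that place acyl-CoA into glycerolipids lay on both sides, as all genes did, and 15 of 16 passed the filter. There were 4 over 0.3, 3 under -0.3 and 8 between, where 16.6% and 16.9% of all genes lay past the bounds. Their median was 0.14. *Mogat1*, which acylates monoacylglycerol, had 845.1 in Tg and 360.8 in WT (1.23), and *Gpat3*, a glycerol 3-phosphate acyltransferase, had 5734 in Tg and 2655 in WT (1.11). *Gpam*, the mitochondrial acyltransferase of the same step, had 0.65 on its brightest probe set and -0.64 on the other. *Agpat4*, a lysophospholipid acyltransferase, had 375.0 in Tg and 636.2 in WT (-0.76), and its second probe set had -0.65.

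Genes around acetate and acetyl-CoA had a median of 0.24, with 7 of 14 over 0.3 and 1 under -0.3. *Acacb*, the acetyl-CoA carboxylase of the mitochondrial surface, had 1088 in Tg and 621.2 in WT (0.81). *Acaca*, its cytosolic form, had 0.46 on its brightest probe set and -0.51 on the other. That other probe set also passed the filter, with 98.7 in Tg and 140.9 in WT. *Slc16a7*, a monocarboxylate transporter, had 0.40. *Slc25a1*, the citrate carrier that delivers acetyl units to the cytosol, had 3211 in Tg and 5094 in WT (-0.67). For propionate, which ACSS3 activates in mitochondria, the median over 7 genes was 0.12 and 0 were under -0.3. The 3 over 0.3 were *Mmaa* (0.76), a cobalamin chaperone, *Mmut* (0.42), methylmalonyl-CoA mutase, and *Pcca* (0.31), a subunit of propionyl-CoA carboxylase, while *Mmab* had -0.24.

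Targets of the regulators known for these enzymes were read last. The SREBP pathway held 16 measured genes. On brightest probe sets, 2 were over 0.3, *Insig2* (0.46) and *Fdft1* (0.39), 0 were under -0.3, and the median was 0.04. Further probe sets that passed the filter were under -0.3 for *Scd2* (-0.97 and -2.47), *Scd1* (-0.36) and *Lss* (-0.48). Those of *Insig2* (0.46) and *Srebf2* (0.41) were over 0.3. *Sqle*, squalene epoxidase, had -0.29 and *Srebf1*, which encodes SREBP-1, had 0.26. Genes of fatty acid use under control of PPAR had a median of 0.29, with 9 of 19 over 0.3 and 0 under -0.3. *Fabp3*, a fatty acid-binding protein, had 3.43 on its brightest probe set. *Ppara*, the receptor itself, had 591.0 in Tg and 151.2 in WT (1.97), with all 3 probe sets over 1. *Plin5*, a droplet protein of oxidative tissue, had 0.92, and *Ucp3*, an uncoupling protein, had 0.75. These lists share genes with each other and with the brown adipocyte markers, and their counts describe the same pair of pools.

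**Figure D4:**
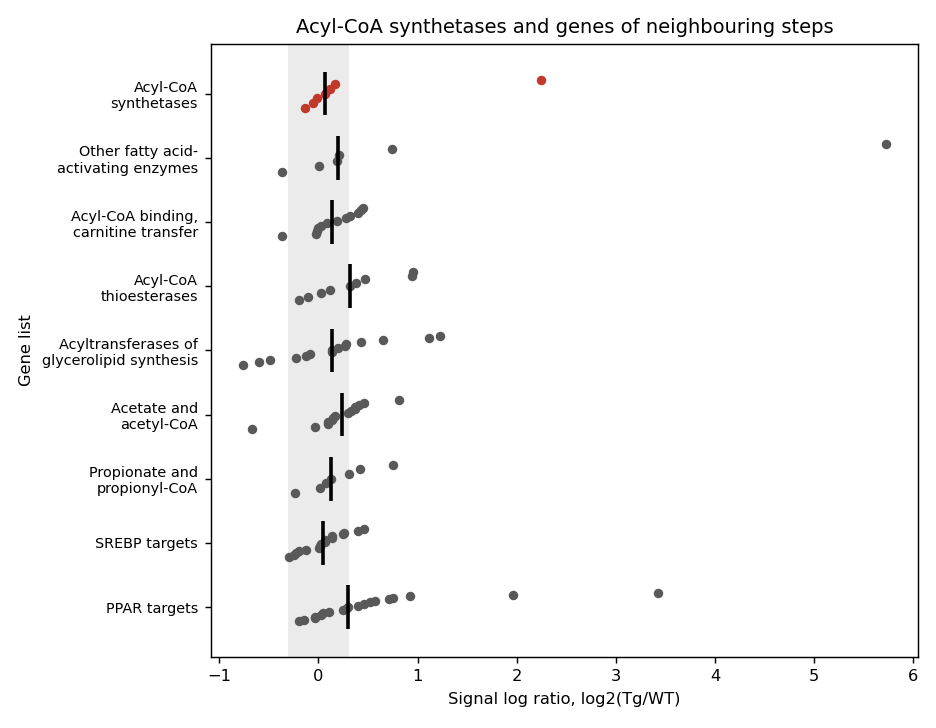
Signal log ratios of the genes that passed the filter, 1 point per gene, for the acyl-CoA synthetases (red) and for 8 lists of neighbouring steps and regulators (grey), with black bars for medians and a band from -0.3 to 0.3. Of the acyl-CoA synthetases 6 lie within the band and *Acsm3* lies at 2.24, whereas the medians of the thioesterases (0.32) and the PPAR targets (0.29) lie near the upper edge of the band. The thioesterases and the other fatty acid-activating enzymes each include 1 gene that passed through its Tg signal alone, *Acot4* and *Slc27a2*. The medians of these lists include them.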

How the data were processed

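RNA of perigonadal WAT was measured on 1 array for each genotype, and the genotype was taken from the sample labels. The authors made the deposited intensity values in GeneChip Operating Software ver1.4, with MAS5 named in the submitters' processing notes without a version. MAS5 subtracts mismatch from perfect-match probes, so that dim probe sets can have very small signals and unstable ratios, and one scaling factor is applied to a whole array. The authors' Present calls were not used here, and the filter on signal took their place. Signal log ratios were computed without pseudocount or further scaling. Of 45101 probe sets, 64 controls were left out, 34945 had 1 symbol in the platform annotation, 932 had several and 9160 were not listed. The members, the gene lists and the alternatives were chosen with earlier results of these data known. Named genes were all members and, from each list of the pathway and its regulators, the 4 passing genes with the largest absolute ratio, plus direct partners. Genes named from the marker lists, Dbi and neighbours of Acsm3 were chosen after their values were seen. Alternatives tried were centring on the median, quantile normalization, loess (span 0.3), a pseudocount of 25.1, a floor of 56.9, no filter or one at 470.5, and other choices of probe set. Protein sequences were not compared here. Known shifts put into simulated signals were recovered, which checks the arithmetic of the steps and not the reliability of these ratios. Python 3.11.15, numpy 2.4.6, pandas 2.3.3, statsmodels 0.14.6 and matplotlib 3.10.9 were used.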

Additional observations from a re-analysis of the deposited data

How the results depend on the processing

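Precision is limited by the number of arrays, with a single pool behind each value, and direction is limited by dim signals. No paired analysis was possible because each genotype has a single array. A value was taken as moved when it changed by more than 0.41, the SD among readings of a gene. This SD is wider than the bound of 0.3, and a direction could count as turned only for enzymes past that bound. Of 60 recomputed values of the 8 enzymes, 57 moved by less and 0 turned such a direction. The 3 that moved were those of *Acsl6*, which had -2.82 as deposited, -1.50 with the pseudocount, -0.43 with the floor and -2.08 on its second probe set. *Acsm3* lay between 2.16 and 2.33 over its 6 alternatives. Among the values near 0, those of *Acsl4* and *Acss2* changed sign on median centring, to 0.07 and 0.03. *Acss1* had 0.48, over the bound, on its second-brightest probe set, which was under the filter. The count of enzymes over 0.3 was 1, and 0 both on second-brightest probe sets and on probe sets without a suffix for shared transcripts, since the only probe set of *Acsm3* has such a suffix and no second exists. Without the filter, enzymes under -0.3 numbered 1 against 0, genes of the pathway lists 12 against 6 and genes of the marker lists 27 against 16, because genes of low signal enter. At the level of probe sets, a setting chosen after seeing the data, 3 were over 0.3 without the filter against 1 with it, and 5 against 1 were under -0.3. Median centring left 0 under -0.3, where the lowest *Acsl4* probe set had -0.298. It also turned the balance of all genes: those over 0.3 made up 65.7% of the genes past the bound, 2890 over and 1510 under, against 49.6% as deposited, 1929 over and 1963 under.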
